A study of Mus musculus with 6 samples.

Results

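Alveolar type 1 cells are the thin, flat epithelial cells that cover most of the gas exchange surface of the lung, and 10 genes used as their markers were followed in mouse lung squamous cell carcinomas: AGER, RTKN2, CLIC5, HOPX, IGFBP2, AQP5, PDPN, CAV1, EMP2 and VEGFA. The genes were taken by symbol from a count table of 46937 gene symbols. All 10 were in the table, and all 10 passed a filter on low counts that left 21201 symbols for testing. Total RNA of tumour biopsies had been sequenced in 3 PSCN libraries and 3 PSC libraries. Tumours of both groups come from a model with Pik3ca H1047R, a constantly active PI3K subunit, with overexpressed Sox2 and with deletion of Cdkn2a and Cdkn2b. PSCN tumours in addition express the T1242A mutant of NSD3, a histone H3 lysine methyltransferase, while PSC tumours are labelled wild type for NSD3 and serve as controls. The promoters or Cre drivers of these alleles and the age of the mice are not given in the sources used here. Nothing in the labels states that every biopsy is from its own mouse, and the p-values below therefore speak of the spread among these libraries, which may be technical.

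In the healthy lung, type 1 cells arise from progenitors and from alveolar type 2 cells, the surfactant-making cells of the alveolus, in a programme that involves the factors NKX2-1 and YAP/TAZ with TEAD partners. They lie against the capillary endothelium, to which they supply VEGFA, and are rich in caveolae, the membrane pits built by CAV1. Of the 10 genes, AGER and RTKN2 are the ones most restricted to type 1 cells within the lung epithelium. The others have known sites elsewhere: PDPN in lymphatic endothelium, fibroblasts and basal squamous cells, HOPX in stratified epithelia, CAV1 in endothelium and fibroblasts, AQP5 in glands and airways, and VEGFA in many hypoxic cells.

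Depth was alike in the 6 libraries, with total counts of 70979353 to 72807077 in PSCN and 69563622 to 72281119 in PSC, of which the 10 genes took 0.183% to 0.240% in PSCN and 0.137% to 0.289% in PSC. The libraries carry no molecular identifiers, so depth bears on counting error only. NSD3 stood at 820.7 to 1931.8 CPM (counts scaled to the TMM-adjusted library size, the unit of all levels below unless RPKM is named) in PSCN and at 79.7 to 101.7 CPM in PSC, which follows the labels, although a count does not separate the mutant from the endogenous transcript. Of the other genes of the model, SOX2 had a log2 fold change of PSCN over PSC of 0.42 (SE 0.47), PIK3CA of 0.39 (SE 0.18) and CDKN2A of -1.05 (SE 0.45). CDKN2B, deleted in the model, was at 86.1 CPM in PSCN library 1 and at 0.943 CPM or less in the other 5 libraries. PSC library 3 stood apart: its log2 CPM values correlated at 0.941 on average with PSCN libraries, against 0.908 with PSC libraries 1 and 2. The basal keratin KRT5, a defining squamous marker, was at 3487, 7319 and 2678 CPM in PSCN libraries 1 to 3 and at 52.1, 575 and 2035 CPM in PSC libraries 1 to 3, so PSC library 1 had little of it. By XIST, PSC libraries 2 and 3 were female and the others male.

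Alveolar type 1 transcripts were present in all 6 libraries, and no member of the set passed the test between PSCN and PSC. With edgeR and adjustment over all genes tested, 0 of the 10 passed at 0.05, where 0.00472% of all genes did (1 gene, GM47308), and the lowest adjusted p of a member was 0.182. DESeq2 called 1 member, IGFBP2, against 14.0% of all genes, limma-voom with quality weights called the same gene against 14.3%, and limma-voom without weights called 0 members and 0 genes. At an unadjusted edgeR p under 0.05, 2 members were higher in PSCN (HOPX and IGFBP2; 9.48% of all genes) and 0 were lower (12.2% of all genes). In either direction that is 2 of 10 beside 21.6% of all genes, a share near the background. The groups did not overlap for 3 of 10 members, HOPX and IGFBP2 with PSCN above and AQP5 with PSCN below, beside 28.6% of all genes. The median log2 fold change of PSCN over PSC was -0.24 over the members and -0.01 over all genes, and 5 of 10 members had a negative one, as had 50.9% of all genes. Without PSC library 2 the members' median was 0.37. Without PSC library 3 the groups did not overlap for 6 members, but the share of all genes was not counted there. A smaller group makes a lack of overlap easier for any gene. At an unadjusted edgeR p under 0.05, that fit had 4 of 10 members beside 33.4% of all genes.

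**Figure D1:**
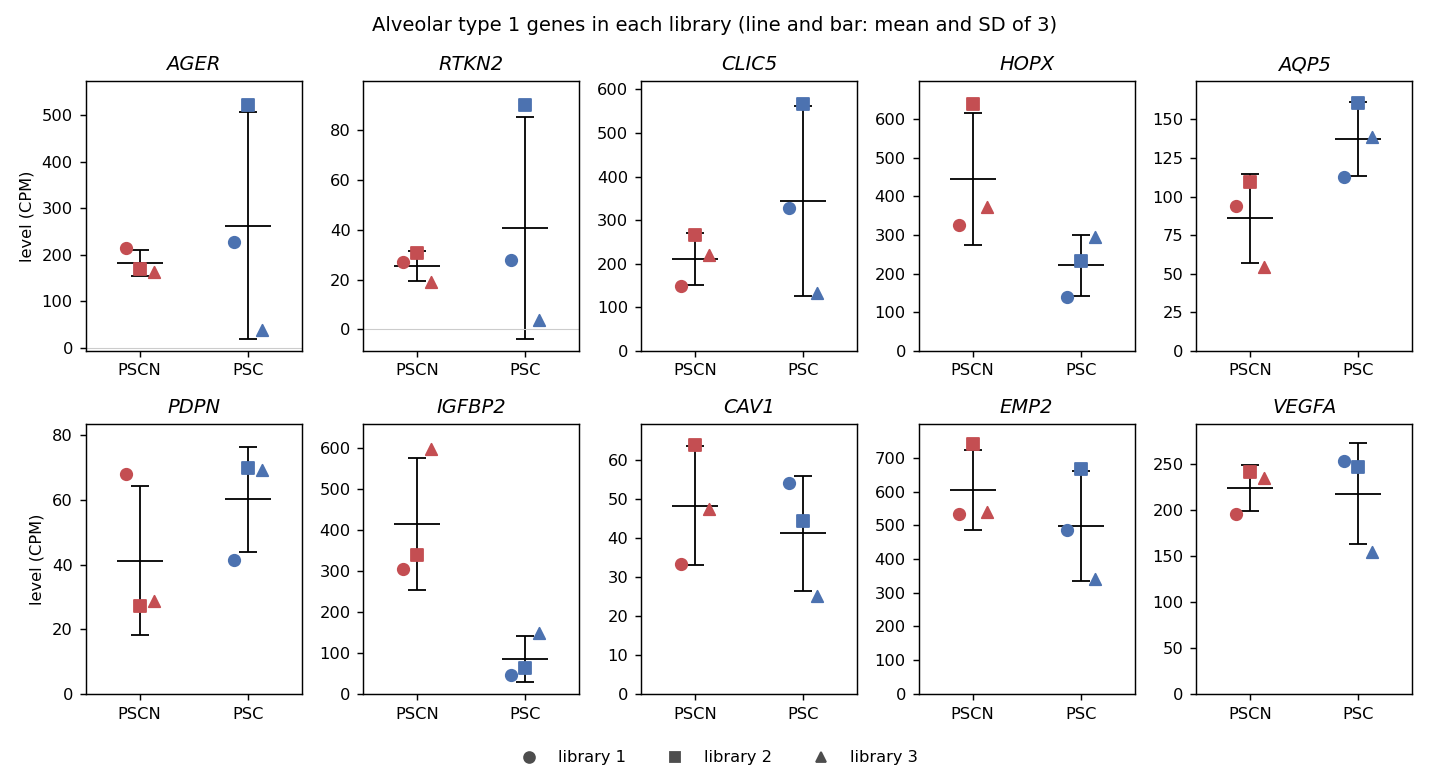
Level of each of the 10 genes in CPM (linear axis, 1 panel a gene) in PSCN libraries (red, left) and PSC libraries (blue, right), with marker shapes for the library numbers and the mean and SD of 3 as line and bar. The PSC libraries spread widely for AGER, RTKN2 and CLIC5, and the groups are separate for HOPX, IGFBP2 and AQP5.

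AGER encodes RAGE, a receptor that type 1 cells carry on their basal side, and is the classical marker of the set (chromosome 17, 34597862 to 34600936, GRCm38). Its level was 215, 170 and 162 CPM in PSCN libraries 1 to 3, against 229, 522 and 37.6 CPM in PSC libraries 1 to 3. The 3 PSCN libraries lay close together and inside the range of PSC, where library 2 was the highest and library 3 the lowest of all 6. The means were 183 ± 28.5 CPM in PSCN and 263 ± 244 CPM in PSC (SD, n = 3 each), a log2 fold change of -0.52 (SE 0.82, adjusted p = 0.720). In bulk tissue, fewer cells of a type and less RNA per cell cannot be told apart.

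RTKN2, a member of the rhotekin family (chromosome 10, 67979570 to 68059740), had the same shape. It stood at 27.0, 30.8 and 18.9 CPM in PSCN and at 28.0, 90.3 and 3.91 CPM in PSC. Here too PSC library 2 was the highest and PSC library 3 the lowest, and the highest PSC library was 23.1 times the lowest, while PSCN libraries spanned 1.63 times. For AGER the spans were 1.32 times in PSCN and 13.9 times in PSC. The log2 fold change of RTKN2 was -0.67 (SE 0.97, adjusted p = 0.696). RTKN2 shares 216 exon bases with the antisense gene GM16212, which had 2 to 4 counts in PSCN and 0 to 10 in PSC.

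RTKN2 varied less as a proportion of AGER than in its own level. For every 100 AGER counts there were 12.5, 18.2 and 11.7 RTKN2 counts in PSCN libraries and 12.2, 17.3 and 10.4 in PSC libraries. The ratio thus spanned 1.75 times over the 6 libraries, against 13.9 times for AGER and 23.1 times for RTKN2. Within PSCN, AGER was highest in library 1 and RTKN2 in library 2. By rank over the 6 libraries, AGER and RTKN2 correlated at 0.83 (Spearman). Among 12346 genes at a mean of 5 CPM or more, the 5 with the pattern most like AGER by Pearson correlation of log2 CPM over the 6 libraries were RBPJL (0.99), ADK (0.99), RTKN2 (0.99), CLDN18 (0.98) and COL4A4 (0.97). CLDN18 is a tight junction claudin of alveolar epithelium and COL4A4 a basement membrane collagen chain, while ADK is adenosine kinase and RBPJL a transcription factor known from the pancreas. In all 5, as in AGER, PSC library 2 was the highest and PSC library 3 the lowest. The 5 were picked for their likeness to AGER, so a shared order is built into the choice. The correlations describe these 6 libraries only.

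CLIC5, a chloride intracellular channel protein tied to the actin cortex (chromosome 17, 44188584 to 44280172), followed AGER more loosely. Its level was 148, 265 and 219 CPM in PSCN, against 329, 568 and 133 CPM in PSC. The highest and the lowest library were again PSC 2 and PSC 3, and CLIC5 per 100 AGER counts ran from 68.7 to 156 in PSCN and from 109 to 353 in PSC. The means were 211 ± 59.0 CPM in PSCN and 343 ± 218 CPM in PSC (SD, n = 3 each), a log2 fold change of -0.70 (SE 0.53, adjusted p = 0.456).

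This order, PSC 2 highest and PSC 3 lowest, was read from the values of AGER, RTKN2 and CLIC5. It was held by these 3 of 10 members and by 1.73% of all genes tested. Of the 10 members, 6 were lowest in PSC library 3, as were 10.5% of all genes. Both counts describe values already seen and are no test. The fold changes of AGER, RTKN2 and CLIC5 depended on PSC libraries 2 and 3. Without PSC library 3, AGER had a log2 fold change of -1.03 (SE 0.38), RTKN2 of -1.20 and CLIC5 of -1.08. Set against PSC library 3 alone, with no test, the values were 2.26, 2.69 and 0.65. Without PSC library 2, AGER had 0.46, RTKN2 0.68 and CLIC5 -0.13, so the negative sign of AGER and RTKN2 rested on PSC library 2.

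**Figure D2:**
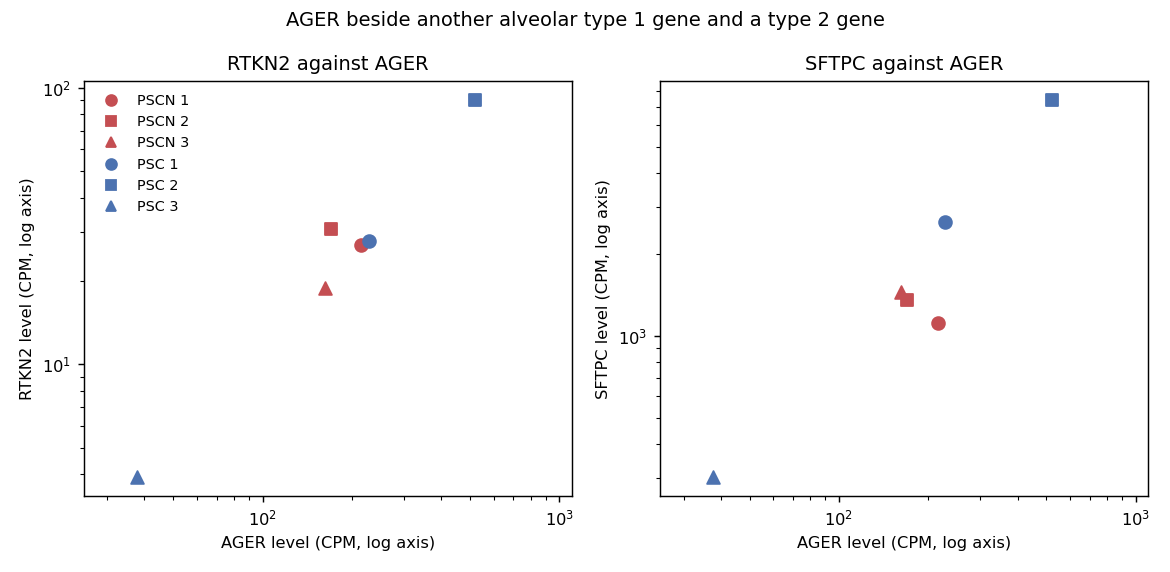
RTKN2 (left) and the type 2 cell gene SFTPC (right) against AGER, all in CPM on log axes, 1 point a library (red PSCN, blue PSC). RTKN2 keeps near a line with AGER from PSC library 3 (3.91 CPM) to PSC library 2 (90.3 CPM), and the 3 PSCN libraries sit together between them.

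Other genes known from type 1 cells had mostly negative fold changes, none past the test. Of 19 measured, 18 had a negative log2 fold change (median -0.48) and 0 passed. Beside 9.48% of all genes higher and 12.2% lower at an unadjusted edgeR p under 0.05, 1 of the 19 was higher and 1 lower. These were MAL2, a raft protein of apical transport, at 0.89 (SE 0.30, adjusted p = 0.197), and the adhesion molecule ICAM1 at -0.43 (SE 0.18, adjusted p = 0.229). LIMCH1, an actin and myosin regulator, stood at 77.1, 85.7 and 58.9 CPM in PSCN and at 292, 268 and 21.8 CPM in PSC, so PSC library 3 alone lay below the PSCN libraries. SEMA3E, a secreted guidance cue, had the same split, with 15.9 to 25.3 CPM in PSCN and 69.0, 57.0 and 7.34 CPM in PSC libraries 1 to 3. In all, 15 of the 19 were lowest in PSC library 3. The list depended on single PSC libraries, with a median of -0.89 without PSC library 3, -0.12 without PSC library 2 (14 negative) and 1.25 against PSC library 3 alone (2 negative), and 13 were negative without PSC library 1.

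Markers of neighbouring cell types varied over the same libraries. All 11 measured type 2 cell markers had a negative fold change (median -1.40). Of them, 4 were at an unadjusted edgeR p under 0.05, beside 12.2% of all genes in that direction, and 0 passed the test. The summed level of the 11 was 2515 to 3281 CPM in PSCN and 7623, 14009 and 1876 CPM in PSC libraries 1 to 3. ABCA3, the lipid pump of lamellar bodies, had -1.64 (SE 0.36), the surfactant protein gene SFTPD -1.46 (SE 0.34), LAMP3 -1.44 (SE 0.58) and the phosphate transporter SLC34A2 -1.33 (SE 0.54). Without PSC library 2 the median was -0.61 with 1 marker positive, and against PSC library 3 alone it was 0.34 with 7 positive. AGER per 100 SFTPC counts was 11.1 to 19.3 in PSCN and 7.01 to 12.5 in PSC, with overlap. Of 12 endothelial markers, 12 were lowest in PSC library 3 and their sum was 553 to 992 CPM in PSCN and 2082, 1255 and 383 CPM in PSC libraries 1 to 3. CLEC14A (-1.64, SE 0.72), TEK (-1.38, SE 0.79), CLDN5 (-1.13, SE 0.72) and PECAM1 (-0.63, SE 0.52) did not pass. No measured gene of either list was at 0 in any library. The part of these cell types in the values of AGER, RTKN2 and CLIC5 was not tested.

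**Figure D3:**
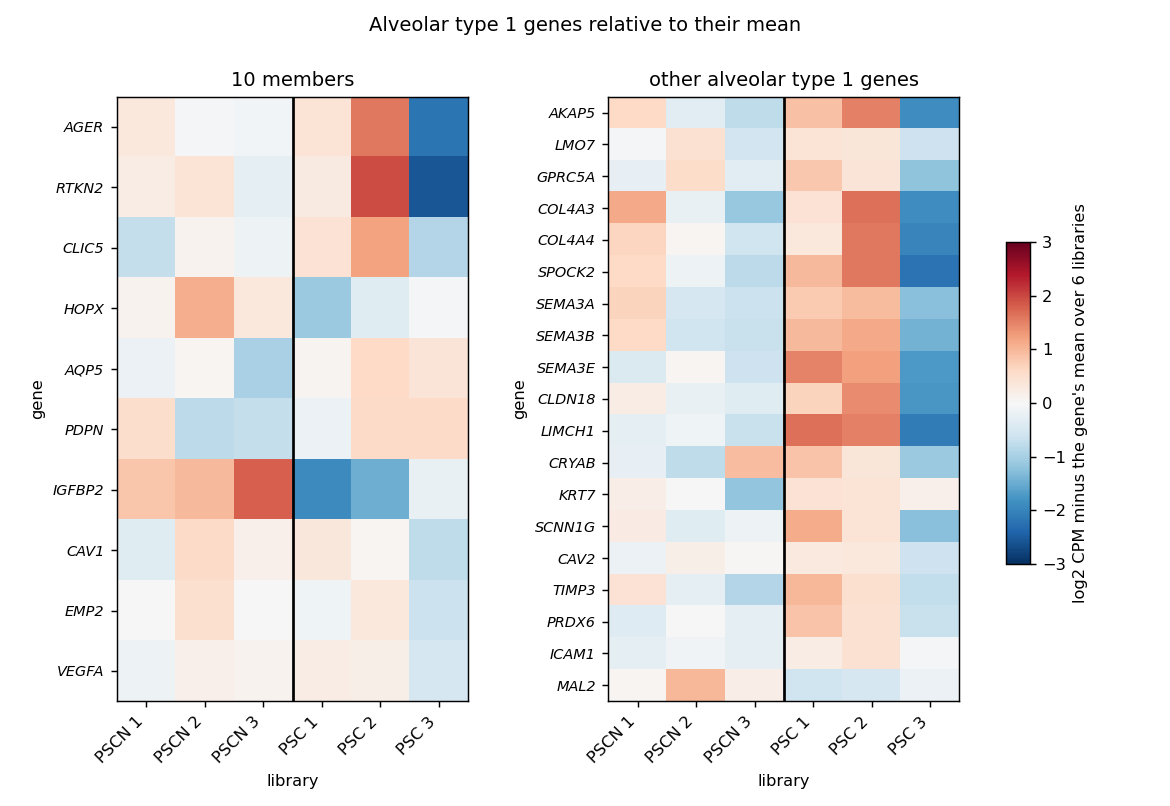
Colour map of log2 CPM minus each gene's mean over the 6 libraries (red above, blue below) for the 10 genes (left) and 19 other type 1 cell genes (right), PSCN libraries left of the line and PSC libraries right of it. PSC library 3 is the lowest column for 6 of the 10 and for 15 of the 19. IGFBP2 and HOPX are higher in every PSCN library than in any PSC library.

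HOPX and IGFBP2 were the 2 members highest per length in PSCN, and both stood above PSC in every PSCN library. HOPX is a homeodomain-only protein that acts as a cofactor without binding DNA itself (chromosome 5, 77086988 to 77115121). It was at 325, 641 and 371 CPM in PSCN, against 138, 232 and 295 CPM in PSC. The groups did not overlap, though the lowest PSCN library was close to PSC library 3. The means were 446 ± 171 CPM in PSCN and 222 ± 78.6 CPM in PSC (SD, n = 3 each), a 2.01-fold difference and a log2 fold change of 1.01 (SE 0.39, 95% interval 0.07 to 1.95, adjusted p = 0.214). HOPX shares 412 exon bases with the antisense gene HOPXOS, whose counts were 321 to 730 in PSCN and 186 to 366 in PSC, while HOPX itself had 22307 to 41486 counts in PSCN and 10256 to 21637 in PSC.

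IGFBP2, a secreted binding protein for insulin-like growth factors that marks mature type 1 cells (chromosome 1, 72824503 to 72852474), had the largest fold change of the 10. Its level was 306, 340 and 598 CPM in PSCN, against 45.6, 62.1 and 148 CPM in PSC. Every PSCN library was above every PSC library, and PSC library 3 was the highest of its group. The means were 415 ± 160 CPM in PSCN and 85.4 ± 55.2 CPM in PSC (SD, n = 3 each), a 4.86-fold difference and a log2 fold change of 2.28 (SE 0.53, 95% interval 0.97 to 3.58), with an edgeR adjusted p of 0.182. In the authors' deposited table IGFBP2 had a log2 fold change of 2.28 with an adjusted p of 0.00176, and HOPX in the authors' deposited table had 1.01 (SE 0.45) with an adjusted p of 0.117. Without PSC library 3 edgeR gave IGFBP2 2.96 with an adjusted p of 0.0403, in a fit that called 8.80% of all genes.

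The female sex of PSC libraries 2 and 3 leaves PSC library 1 as the only male PSC library. With sex in the fit, IGFBP2 had a log2 fold change of 3.18 (adjusted p = 0.177) and HOPX of 1.69, values that rest on that library. The member most like HOPX over the 6 libraries was IGFBP2 (Pearson correlation of log2 CPM 0.82), and neither followed AGER, with correlations of -0.22 for HOPX and -0.28 for IGFBP2.

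Squamous genes also mostly had higher mean levels in PSCN, none past the test. All 11 squamous differentiation genes measured had a positive fold change (median 2.54). Of them, 6 were at an unadjusted edgeR p under 0.05, beside 9.48% of all genes in that direction, and 0 passed the test. The summed level of the 11 was 9911, 11394 and 5234 CPM in PSCN libraries 1 to 3 and 115, 1164 and 3032 CPM in PSC libraries 1 to 3. SBSN (4.14, SE 0.64), CDSN (4.43, SE 0.88), both cornified envelope genes, and the keratin KRT10 (2.54, SE 0.80) were examples, and the cornifin SPRR1B was at 19.5, 282 and 26.2 CPM in PSCN and at 0, 0.119 and 1.57 CPM in PSC. Of 9 basal squamous genes, 8 had a positive fold change, among them the laminin chain LAMA3 (1.04, SE 0.36), KRT14 (2.72, SE 1.32) and the integrin ITGB4 (0.90, SE 0.46), while NGFR had -1.55 (SE 0.74). Of the 9 basal genes, 1 was higher at an unadjusted edgeR p under 0.05, beside 9.48% of all genes, and 0 passed the test. The basal sums were 9588, 20816 and 7248 CPM in PSCN and 443, 1992 and 6103 CPM in PSC. PSC library 3 was the highest of its group in both sums, as it was for HOPX and IGFBP2. Against PSC library 3 alone, the differentiation median was 1.61, with 10 genes positive and 1 negative. The basal median was then 0.47, from 1.18 over all libraries, with 6 genes positive and 3 negative. Within PSCN, HOPX and both sums were highest in library 2, whereas IGFBP2 was highest in library 3, where both sums were lowest. The part of squamous cells in the levels of both genes was not tested.

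The state between type 2 and type 1 cells, known from regenerating lungs, was read from 12 genes, of which 8 had a positive fold change (median 0.66). At an unadjusted edgeR p under 0.05, 5 were higher in PSCN (9.48% of all genes) and 1 lower (12.2% of all genes), and 0 passed the test. The cell cycle inhibitor CDKN1A was at 215, 365 and 330 CPM in PSCN and at 133, 139 and 140 CPM in PSC (1.14, SE 0.23, adjusted p = 0.171). The galectin LGALS3 (1.25, SE 0.40) and the claudin CLDN4 (2.06, SE 0.68) were also without overlap. The simple epithelial keratin KRT18 ran the other way, at 50.1, 32.2 and 63.5 CPM in PSCN and at 280, 204 and 176 CPM in PSC (-2.18, SE 0.32, adjusted p = 0.137). KRT8, another of the 4 genes with a negative fold change, was at 201, 81.1 and 487 CPM in PSCN. In PSC it was at 487, 411 and 509 CPM (-0.87, SE 0.61), with overlap. The part of this state, or of squamous cells, in these levels was not tested.

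Within the insulin-like growth factor axis, the binding proteins had fold changes of either sign. Of 14 axis genes measured, 6 had a positive and 8 a negative fold change (median -0.27), and 0 passed. The median was -0.03 without PSC library 1, -0.17 without PSC library 3 or PSCN library 3 and -0.41 without PSCN library 2, and 3 were positive without PSC library 2. IGFBP6 stood at 1.98 to 2.49 CPM in PSCN and at 7.18 to 44.1 CPM in PSC (-3.29, SE 0.69, adjusted p = 0.175), and IGFBP5 at 112 to 434 CPM in PSCN and 819 to 1167 CPM in PSC (-2.07, SE 0.57, adjusted p = 0.189). Both lay below PSC in every PSCN library. IGFBP3 had 364 to 767 CPM in PSCN and 74.4 to 380 CPM in PSC, overlapping by PSC library 3 (1.57, SE 0.67).

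AQP5, the apical water channel of type 1 cells (chromosome 15, 99590782 to 99594829), was the member below PSC in every PSCN library. It was at 94.0, 109 and 54.0 CPM in PSCN, against 113, 161 and 139 CPM in PSC. The highest PSCN and the lowest PSC library were close. The means were 85.8 ± 28.6 CPM in PSCN and 137 ± 24.0 CPM in PSC (SD, n = 3 each), a log2 fold change of -0.68 (SE 0.30, adjusted p = 0.247), and PSC library 3 did not stand out, with -0.66 without it and -0.71 against it alone. Of 8 aquaporins measured, 6 had a negative fold change and 0 passed. AQP11, an intracellular aquaporin, was at 4.67 to 8.39 CPM in PSCN and 10.2 to 21.3 CPM in PSC (-1.23, SE 0.37, adjusted p = 0.191). AQP4 had -0.54 (SE 0.45), and the kidney channel AQP2 was below 1 CPM throughout.

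PDPN encodes podoplanin, the mucin-like T1α antigen that binds CLEC-2 on platelets and links to the actin cytoskeleton through ezrin-type proteins (chromosome 4, 143267431 to 143299564). Its level was 67.9, 27.1 and 28.7 CPM in PSCN, against 41.3, 69.9 and 69.3 CPM in PSC. PSCN library 1 lay among the PSC libraries and the other 2 below all of them, for a log2 fold change of -0.54 (SE 0.43, adjusted p = 0.471). Without PSCN library 1 it was -1.10. That library also carried the fibroblast collagens, with COL1A1 at 19229 CPM in PSCN library 1, 324 to 617 CPM in the other PSCN libraries and 278 to 1228 CPM in PSC. The sum of 10 fibroblast markers was 41574, 1884 and 1171 CPM in PSCN and 1547 to 4062 CPM in PSC, and its part in the PDPN level was not tested. Of these 10, 6 had a positive fold change in all libraries and 0 without PSCN library 1, and 0 passed the test, with COL1A2 at 3.05 (SE 1.62), DPT at -1.32 (SE 0.38) and THY1 at -1.01 (SE 0.49). Of 7 genes measured in a list of podoplanin partners and platelet receptors, 2 had a positive and 5 a negative fold change and 0 passed. The hyaluronan receptor CD44 had 0.75 (SE 0.39), the tetraspanin CD9 0.51 (SE 0.25) and the membrane linker radixin (RDX) -0.45 (SE 0.23). CLEC1B, the gene of CLEC-2, was at 0.277, 3.60 and 2.40 CPM in PSCN and at 10.6, 8.58 and 0.0409 CPM in PSC (-1.61, SE 1.61). GP6, the gene of a platelet collagen receptor and so not a podoplanin partner, was at 0.112 to 0.277 CPM in PSCN and 0.0409 to 2.94 CPM in PSC.

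CAV1, EMP2 and VEGFA differed least. CAV1, the scaffold of caveolae (chromosome 6, 17306335 to 17341452), was at 33.5, 64.0 and 47.6 CPM in PSCN, against 54.3, 44.4 and 25.2 CPM in PSC, with a log2 fold change of 0.23 (SE 0.36, 95% interval -0.65 to 1.10). The groups overlapped, and PSC library 3 was the lowest. Its partner CAV2 kept a narrow ratio to it, with 32.0 to 48.4 CAV1 counts per 100 CAV2 counts in PSCN and 30.1 to 37.8 in PSC. Of 10 caveola genes, 5 had a positive and 5 a negative fold change and 0 passed. At an unadjusted edgeR p under 0.05 there were also 0, beside 21.6% of all genes. Without PSC library 1, 8 of the 10 were positive, and against PSC library 3 alone 8 were. The coat protein gene CAVIN2, known from endothelium and type 1 cells, was at 30.5 to 39.7 CPM in PSCN and at 185, 142 and 15.9 CPM in PSC libraries 1 to 3 (-1.74, SE 0.80). CAVIN4 had 1.06 (SE 0.69), CAVIN3 0.55 (SE 0.40) and CAV3, the muscle caveolin, -1.45 (SE 1.24).

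EMP2, a tetraspan membrane protein (chromosome 16, 10281749 to 10313968), was at 533, 741 and 538 CPM in PSCN, against 486, 666 and 342 CPM in PSC. The groups overlapped and the log2 fold change was 0.28 (SE 0.30, 95% interval -0.46 to 1.01). Its relative EMP1, known from squamous epithelia, was above PSC in every PSCN library, at 1773, 3641 and 1485 CPM in PSCN and 289, 351 and 1368 CPM in PSC (1.78, SE 0.73, adjusted p = 0.231). EMP3 had 0.01 (SE 0.45) and PMP22 -1.19 (SE 0.98).

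VEGFA, the endothelial growth factor that type 1 cells supply to capillaries (chromosome 17, 46016993 to 46032369), was at 195, 241 and 235 CPM in PSCN, against 252, 247 and 154 CPM in PSC. The PSCN libraries lay within the range of PSC, with means of 224 ± 24.8 CPM in PSCN and 218 ± 55.3 CPM in PSC (SD, n = 3 each) and a log2 fold change of 0.04 (SE 0.24, 95% interval -0.53 to 0.62). VEGFA is also a hypoxia target. In a list of 11 such genes that includes VEGFA itself, 10 had a positive fold change (median 1.68), VEGFA among them. Of the 11, 6 were higher at an unadjusted edgeR p under 0.05, beside 9.48% of all genes, and 0 passed the test. ANKRD37 (1.20, SE 0.22), the mitophagy gene BNIP3 (1.75, SE 0.51), NDRG1 (2.51, SE 0.75) and the collagen hydroxylase P4HA1 (0.90, SE 0.29) did not overlap between the groups. The difference between VEGFA and the other genes of this list was not tested.

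Of 10 VEGF ligands and receptors, 3 had a positive fold change (median -0.17) and 0 passed. Without PSC library 1, 6 were positive (median 0.12), against PSC library 3 alone 7 were, and the median was -0.30 without PSC library 2 and -0.34 without PSC library 3 or PSCN library 1. Without PSCN library 2 it was -0.26. The placental growth factor gene PGF was at 18.8 to 29.0 CPM in PSCN and 3.34 to 12.0 CPM in PSC (1.56, SE 0.49, adjusted p = 0.193). VEGFD had 2.05 to 7.77 CPM in PSCN and 4.29 to 35.3 CPM in PSC (-2.26, SE 0.87). The co-receptors split, NRP2 at 0.98 (SE 0.41) and NRP1 at -1.07 (SE 0.52), and NRP1 was, like the endothelial markers, far lower in PSC library 3 (76.0 CPM) than in PSC libraries 1 and 2 (299.9 and 229.6 CPM).

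**Figure D4:**
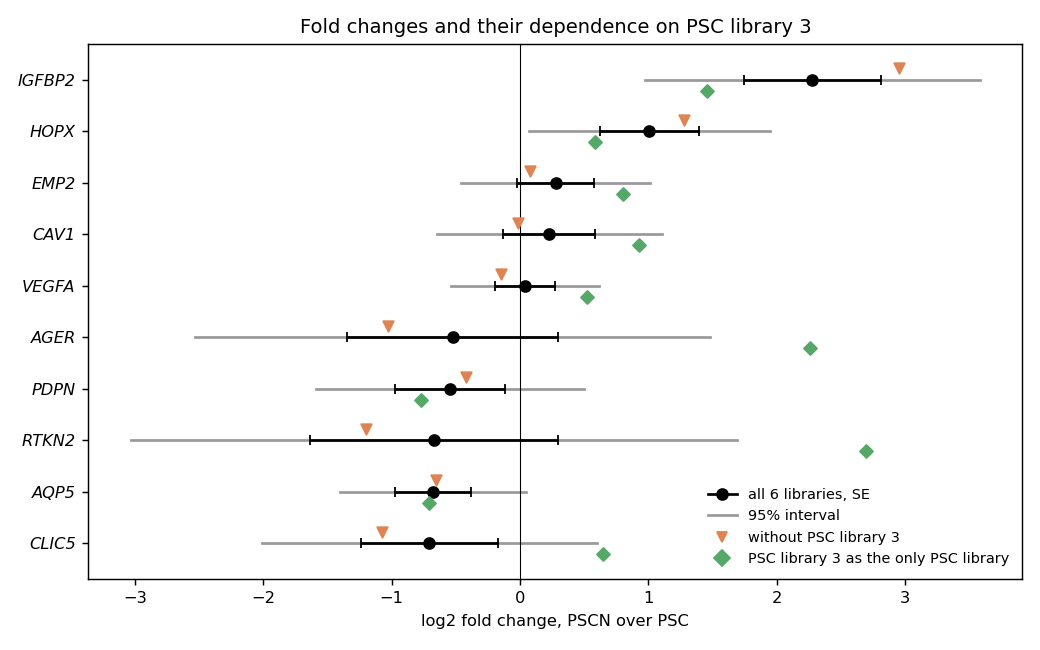
Log2 fold change of PSCN over PSC for each gene with its SE (black) and 95% interval (grey), the value without PSC library 3 (orange) and the value against PSC library 3 alone (green). IGFBP2 and HOPX keep a positive value and AQP5 and PDPN a negative one in all 3, while AGER, RTKN2 and CLIC5 change sign when PSC library 3 is the only PSC library.

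Relatives and partners of the other members showed no call either. RTKN, the founding rhotekin, was at 45.6, 51.1 and 48.6 CPM in PSCN and at 22.1, 29.7 and 27.2 CPM in PSC, a log2 fold change of 0.88 (SE 0.16, adjusted p = 0.167) in a gene whose libraries differed little within a group. In the CLIC family, CLIC6 was at 8.33, 4.50 and 8.15 CPM in PSCN and at 190.1, 119.7 and 24.4 CPM in PSC (-3.99, SE 0.79, adjusted p = 0.171), CLIC1 had 0.60 (SE 0.26), CLIC3 0.34 (SE 0.53) and CLIC4 -0.34 (SE 0.34). Of 9 RAGE ligands and signalling partners, 7 had a positive fold change and 0 passed. The calcium-binding S100A11 was at 397 to 509 CPM in PSCN and 202 to 295 CPM in PSC (0.88, SE 0.21, adjusted p = 0.187). S100A9, a neutrophil and keratinocyte product, was at 80.3, 271 and 426 CPM in PSCN and at 7.83, 15.2 and 127 CPM in PSC, its partner S100A8 had 1.96 (SE 1.49), and S100B stood below 4 CPM throughout with -2.06 (SE 0.68).

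Regulators of the type 1 programme were mixed. Of 13 measured, 9 had a positive fold change (median 0.32) and 0 passed. At an unadjusted edgeR p under 0.05, 1 was higher and 1 lower, beside 9.48% and 12.2% of all genes. The lung lineage factor GATA6 was at 9.77, 7.31 and 5.96 CPM in PSCN and at 38.7, 37.2 and 9.28 CPM in PSC (-1.89, SE 0.56, adjusted p = 0.191). TEAD3, a partner of YAP, was above PSC in every PSCN library, at 53.6 to 85.2 CPM in PSCN and 38.0 to 44.6 CPM in PSC (0.64, SE 0.21, adjusted p = 0.196), while TEAD4 had 0.81 (SE 0.42) and overlapped, and the stress-induced DDIT4 had 0.88 (SE 0.39). The median of the list was 0.0037 without PSCN library 2 (7 positive), 0.16 without PSC library 3 and 0.55 without PSC library 1.

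Per length, in RPKM over merged exons, the order of the members differed between the groups mainly in the place of IGFBP2. In PSCN it ran HOPX (mean 294), IGFBP2 (224), AGER (85.2), EMP2 (69.9), VEGFA (52.2), AQP5 (33.0), CLIC5 (24.0), PDPN (22.7), CAV1 (14.0) and RTKN2 (4.61). Of the 9 pairs of neighbours in that order, the libraries of IGFBP2 and AGER, EMP2 and VEGFA, VEGFA and AQP5, and CAV1 and RTKN2 did not overlap, and the other 5 pairs did. In PSC it ran HOPX (146), AGER (123), EMP2 (57.6), AQP5 (52.8), VEGFA (50.8), IGFBP2 (46.2), CLIC5 (39.1), PDPN (33.1), CAV1 (12.0) and RTKN2 (7.34), and the libraries of PDPN and CAV1 alone among neighbours did not overlap. IGFBP2 was thus second in PSCN and sixth in PSC.

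Promoter windows of 4 members are shown because their levels carry the 2 patterns above: AGER for the spread within PSC, and HOPX, IGFBP2 and AQP5 for the groups that did not overlap. Each window is 250 bases before to 50 after a RefSeq start, taken from RefSeq for GRCm38.p6 and written from the 5′ to the 3′ end of the gene's strand. They lie at chr17:34597600-34597899 on the plus strand, chr5:77095218-77095517 on the minus strand (the second of the HOPX windows), chr1:72824230-72824529 on the plus strand (the first of the IGFBP2 windows) and chr15:99590778-99591077 on the plus strand. Capitals mark matches on either strand to CATTCC (the core read by TEAD factors), CAAGTG (NKX2-1), ACGTG (hypoxia factors) or CACGTG, the E-box palindrome that contains ACGTG and was added after the sequences were seen.
AGER: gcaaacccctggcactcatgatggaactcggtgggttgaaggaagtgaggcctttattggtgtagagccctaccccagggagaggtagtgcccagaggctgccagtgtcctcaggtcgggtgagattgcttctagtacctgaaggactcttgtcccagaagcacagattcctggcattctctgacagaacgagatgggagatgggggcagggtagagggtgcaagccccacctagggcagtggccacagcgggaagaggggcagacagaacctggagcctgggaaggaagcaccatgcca
HOPX: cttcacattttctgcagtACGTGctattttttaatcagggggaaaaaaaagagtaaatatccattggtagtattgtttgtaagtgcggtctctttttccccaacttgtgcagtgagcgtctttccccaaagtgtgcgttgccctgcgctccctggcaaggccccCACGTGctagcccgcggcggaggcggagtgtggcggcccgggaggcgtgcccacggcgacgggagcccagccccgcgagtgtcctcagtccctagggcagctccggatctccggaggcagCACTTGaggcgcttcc
IGFBP2: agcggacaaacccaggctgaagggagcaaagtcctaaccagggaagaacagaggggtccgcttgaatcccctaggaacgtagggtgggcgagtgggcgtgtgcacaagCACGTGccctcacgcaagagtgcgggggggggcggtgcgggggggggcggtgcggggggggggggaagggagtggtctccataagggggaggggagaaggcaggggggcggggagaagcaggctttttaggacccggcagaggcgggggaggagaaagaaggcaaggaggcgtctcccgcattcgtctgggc
AQP5: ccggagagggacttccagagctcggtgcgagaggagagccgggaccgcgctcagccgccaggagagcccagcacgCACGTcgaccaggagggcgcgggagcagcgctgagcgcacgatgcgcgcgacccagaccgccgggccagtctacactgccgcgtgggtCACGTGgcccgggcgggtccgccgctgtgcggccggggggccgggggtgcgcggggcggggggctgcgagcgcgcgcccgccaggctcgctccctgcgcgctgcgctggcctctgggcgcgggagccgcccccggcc

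The AGER window held none of these letters, and the other 3 held CACGTG each. HOPX and IGFBP2 have another window each in the table, without CACGTG, and the windows printed were chosen because they hold it. The table had 13 windows for 9 members. CATTCC was in 0 of the 13 windows, beside 14.7% of the 32851 windows in the table, and CAAGTG in 1, the HOPX window shown, beside 13.6%. ACGTG was in 7 windows of 6 genes, beside 19.6% of all windows, and CACGTG in 4 windows, those of HOPX, IGFBP2, AQP5 and PDPN, beside 7.15%. The 4 genes with CACGTG included members higher in PSCN (HOPX, IGFBP2) and lower in PSCN (AQP5, PDPN) by their fold changes. A match describes letters in these windows and is not a binding site.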

How the data were processed

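Total RNA of 3 PSCN and 3 PSC tumour biopsies was made into stranded libraries and read at 76 nt, per the labels' protocols. GRCm38 is the genome in the submitters' processing notes, and their tools are listed, with no version, as HISAT2, StringTie, Trimmomatic and DESeq2. Whether counting used strand is not stated in the sources used here, and reads of overlapping antisense genes may be mixed. The authors deposited estimated counts per gene symbol, already whole numbers. The authors also deposited a DESeq2 table with mean signal, log2 fold changes with standard errors, a test score, and p-values with adjusted p-values. Columns were assigned to samples by their letter (N for PSCN, C for PSC) and number, a key the labels leave implicit. 0 per-sample columns were left unused.

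The 46937 symbols, of which 14737 had no count, were filtered with filterByExpr (21201 left), scaled with TMM and fitted with edgeR 4.0.16 in R 4.3.3, using its quasi-likelihood F test of PSCN over PSC with Benjamini-Hochberg adjustment over all of them and a threshold of 0.05 (residual degrees of freedom 4, prior 2.03). SEs were computed as absolute log2 fold change over the square root of F, and intervals are 95%. Log2 CPM used a prior count of 2. With 3 libraries in each group the smallest two-sided p of an exact permutation test is 0.1, and single genes were not tested that way. RPKM used merged exons of GENCODE M21 (GRCm38).

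The members, the gene lists and the alternatives were chosen with earlier results of these data known. Named genes were all 10 members, the genes of the model, up to 4 members of each list described with the smallest p (every member of lists of at most 5 genes) and the 5 genes most like AGER. KRT5, KRT8, SFTPC, CAV2, CLEC1B, XIST, HOPXOS, GM16212 and GM47308 were named after their values were seen. Lists not described are left out, and 0 of their genes passed the test.

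Alternatives were RLE and upper quartile scaling, DESeq2 1.42.0 with its Wald test, voom of limma 3.58.1 with and without quality weights, edgeR with adjusted deviances, no filter, a filter of 1 CPM in 3 libraries, a replicate block, sex as a covariate, each library left out in turn, and PSC library 3 as the only PSC library. On simulated data for PSCN against PSC with 21201 genes, edgeR found 24% of the 4-fold and 66% of the 16-fold changes and made 94 calls, 4 of them false. The shares were 72% and 94% for DESeq2 (280 calls, 114 false) and 17% and 63% for weighted limma-voom (86 calls, 6 false). The simulation drew every gene independently and let no library depart in many genes at once, as PSC library 3 does. Its rates therefore need not hold for these data.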

Additional observations from a re-analysis of the deposited data

How the results depend on the processing

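Over 17 alternatives the 10 members gave 170 values, of which 148 kept their direction and their side of the threshold, 3 (all IGFBP2) newly passed it and 19 changed sign. HOPX, IGFBP2, AQP5 and PDPN never changed sign under these alternatives, though PDPN was at -0.00077 (SE 0.58) with sex as a covariate, which gives no direction. The number of genes called over the whole table was 2960 with DESeq2, 3026 with limma-voom and quality weights, 0 without those weights, 3 with adjusted deviances, 3 with the 1 CPM filter, 0 with the replicate block and 0 with sex as a covariate. DESeq2 and limma-voom with weights each called 1 member, beside 14.0% and 14.3% of all genes. With weights 4 of 10 members were at an unadjusted limma-voom p under 0.05, beside 38.9% of all genes. The members' median log2 fold change was 0.17 without weights and 0.73 against PSC library 3 alone, where 10 members did not overlap, a single PSC library having no range. The sign changed for VEGFA with upper quartile scaling (-0.034), for EMP2 (-0.0046) and VEGFA (-0.072) with quality weights, for AGER (0.14) and RTKN2 (0.21) without weights, for CAV1 (-0.17) and VEGFA (-0.17) with sex, and for AGER (2.26), RTKN2 (2.69) and CLIC5 (0.65) against PSC library 3 alone. The cause was not tested.

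With each library left out in turn, 0 to 1946 genes and 0 to 1 members were called, and the members' median ran from -0.28 to 0.37. At an unadjusted edgeR p under 0.05 there were 1 to 4 members. The share of all genes there ran from 11.3% without PSC library 2 to 33.4% without PSC library 3. From 3 to 6 members did not overlap, and the share of all genes was not counted for that. AGER ran from -1.03 to 0.46, RTKN2 from -1.20 to 0.68, CAV1 from -0.077 to 0.47 and VEGFA from -0.14 to 0.16. The others kept their sign, HOPX at 0.61 to 1.28, IGFBP2 at 1.90 to 2.96, AQP5 at -0.94 to -0.45, PDPN at -1.10 to -0.37, EMP2 at 0.05 to 0.55 and CLIC5 at -1.08 to -0.13. The highest count of genes came without PSC library 3.

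Same-numbered libraries correlated at 0.186, -0.0535 and 0.0158 in their deviations from the group means. In each group 1 of 3 libraries correlated best with its own number. With 3 libraries in each group this cannot show whether the samples share more than a number. With the replicate block AGER had 0.10 and RTKN2 0.18, IGFBP2 had 2.40 (SE 0.23, adjusted p = 0.253), and 0 members were called. The lowest count of any member in a library was 287 (RTKN2 in PSC library 3).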

Other observations

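RBPJL and ADK, which were most like AGER over the 6 libraries, differed from it in span. RBPJL was at 13.6, 12.1 and 10.3 CPM in PSCN, against 21.0, 43.6 and 2.55 CPM in PSC, while ADK was at 34.3, 33.5 and 30.1 CPM in PSCN, against 33.2, 42.7 and 21.9 CPM in PSC. In both, PSC library 2 was the highest and PSC library 3 the lowest, and the PSCN libraries lay together between them. Both genes were picked for their likeness to AGER, so this order is built into the choice.

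Airway genes had median fold changes further from 0 than the type 1 genes. All 9 ciliated cell markers had a negative log2 fold change of PSCN over PSC (median -3.65). So had all 7 club cell markers measured (median -3.87). At an unadjusted edgeR p under 0.05 were 9 ciliated and 6 club markers, beside 12.2% of all genes in that direction. With edgeR, 0 passed the test in either list. Ciliated markers summed to 31.4 to 73.3 CPM in PSCN and to 995, 450 and 42.3 CPM in PSC libraries 1 to 3. PSC library 3 lay among the PSCN libraries in that sum. The ciliated median was -2.41 without PSC library 1, and against PSC library 3 alone it was 0.11, while the club median was then -1.90.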
